A study of Mus musculus with 6 samples.

Results

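The 10 immediate early genes Fos, Fosb, Jun, Junb, Jund, Atf3, Egr1, Klf4, Ier2 and Zfp36 were followed in single kidney cells of 6 mice, 3 of them sham-operated and 3 given DOCA-salt. They were taken by symbol from the 33696 genes of the count files, and all 10 were found. Their unique molecular identifiers (UMIs, 1 per captured RNA molecule) were summed for each mouse and each cell type. A level is given in CPM, the UMIs of the gene per 1000000 UMIs of that sum. All mice were male C57BL/6, 8 to 10 weeks old when the model was set up. The DOCA-salt mice lost the left kidney, then carried a pellet of 50 mg deoxycorticosterone acetate under the skin and drank 1% NaCl for 21 days. The sham mice had a sham operation, no pellet and plain water. Nephrectomy, DOCA and salt therefore came together, and their effects cannot be told apart. Each mouse gave 1 library, so n is 3 per group throughout.

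Immediate early genes are transcribed within minutes of a stimulus, without new protein synthesis. Fos, Fosb, Jun, Junb and Jund are subunits of AP-1, a dimeric factor of Fos and Jun proteins. Atf3 is a stress-induced factor of the same bZIP class that can pair with Jun proteins, and Egr1 and Klf4 are zinc finger transcription factors. Ier2 is a small nuclear protein induced with them, and Zfp36 (tristetraprolin) binds AU-rich stretches of cytokine mRNAs and hastens their decay. In the kidney these genes respond to injury, ischemia and mechanical load. They also respond to the warm enzymatic digestion that frees cells from tissue. Here all kidneys were digested with collagenase II at 37 °C for 30 to 60 min, the time for each mouse is not given in the sources used here, and the part of digestion in the levels was not tested.

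The files held 76774 barcodes with 93172739 to 137819127 UMIs per mouse. Of these, 60561 had at most 50% mitochondrial UMIs and at most 5% hemoglobin UMIs, and 55630 remained after 4931 likely doublets were removed. Clustering left out the 10 genes and the lists below. It gave 54 clusters, of which 42 took a cell type from its markers, and 12 (6611 cells) stayed unnamed. Of the 604 cells of 1 unnamed cluster, 587 came from DOCA-salt 2, and they enter the sums over all cells only. Pairs of libraries shared 33 to 69 barcodes, at most 0.525% of the smaller library. A total of 9 cell types had at least 100 cells in every mouse and were tested. The share of macrophages was 1.56% ± 0.177 in the sham group and 6.46% ± 1.21 in the DOCA-salt group (mean ± SD over 3 mice). B cells are given in sham mice only and fibroblasts in DOCA-salt mice only, because the other group had mice with fewer than 20 of them.

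The stretch of 250 bases before the start site is shown for 5 of the genes that changed in the connecting tubule below, so that their promoters can be read beside their changes. Of these, Junb, Atf3 and Zfp36 also changed in the distal convoluted tubule. Jun and Egr1 changed in the connecting tubule too and are not shown. The sequences are RefSeq's on GRCm38.p6, 5′ to 3′ along the gene, and 8 of the 10 genes matched the table, all but Egr1 and Ier2. Capitals mark motif matches on either strand. Fos covers chr12:85473640-85473889 on the plus strand. The other four are on the minus strand: Junb at chr8:84978749-84978998, Atf3 at chr1:191183334-191183583, Klf4 at chr4:55532476-55532725 and Zfp36 at chr7:28379229-28379478.
Fos: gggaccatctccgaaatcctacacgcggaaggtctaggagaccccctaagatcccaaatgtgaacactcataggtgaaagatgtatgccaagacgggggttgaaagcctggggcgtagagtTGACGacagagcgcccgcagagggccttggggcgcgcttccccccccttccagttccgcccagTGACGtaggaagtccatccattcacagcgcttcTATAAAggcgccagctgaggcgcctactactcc
Junb: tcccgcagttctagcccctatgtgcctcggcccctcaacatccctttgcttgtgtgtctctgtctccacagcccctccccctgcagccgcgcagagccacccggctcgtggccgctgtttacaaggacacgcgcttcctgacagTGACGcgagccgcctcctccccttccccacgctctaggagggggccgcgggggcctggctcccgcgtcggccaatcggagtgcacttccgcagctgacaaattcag
Atf3: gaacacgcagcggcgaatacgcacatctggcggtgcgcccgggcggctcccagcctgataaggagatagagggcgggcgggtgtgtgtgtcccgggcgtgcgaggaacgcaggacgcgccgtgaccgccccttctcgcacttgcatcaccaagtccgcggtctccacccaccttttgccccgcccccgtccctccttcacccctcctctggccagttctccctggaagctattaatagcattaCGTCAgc
Klf4: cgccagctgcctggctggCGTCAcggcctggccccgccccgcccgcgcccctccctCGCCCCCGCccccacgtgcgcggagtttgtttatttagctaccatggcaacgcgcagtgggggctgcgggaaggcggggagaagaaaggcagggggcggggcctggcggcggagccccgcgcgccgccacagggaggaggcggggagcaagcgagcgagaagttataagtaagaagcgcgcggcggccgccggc
Zfp36: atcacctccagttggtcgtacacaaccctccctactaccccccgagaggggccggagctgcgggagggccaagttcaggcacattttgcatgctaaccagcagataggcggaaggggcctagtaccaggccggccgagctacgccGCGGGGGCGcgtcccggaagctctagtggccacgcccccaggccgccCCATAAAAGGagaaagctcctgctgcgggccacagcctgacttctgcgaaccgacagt

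Windows of 300 bases (250 before and 50 after the start site) of the 8 promoters were searched on both strands. The AP-1 site TGAGTCA was in 0 of 8, against 5.20% of all 32851 promoters, and the full cAMP response element (CRE) TGACGTCA was in 0 of 8, against 1.79%. TGACG, the core of the CRE and part of every full match to it, was in 5 of 8 (Fos, Fosb, Junb, Atf3 and Klf4), against 20.8%. In Fos it lay at -129 and -66 from the start site, in Junb at -106, in Fosb at -60 and in Klf4 at -232. In Atf3 it lay at -7. The EGR site GCGGGGGCG was in 3 of 8 (Fosb, Klf4 and Zfp36), against 2.91%. A CArG box, the site of serum response factor, was in the promoter of Zfp36 at -58 (1 of 8, against 1.63%). TATAAA was in 2 of 8, at -33 in Fos and at 1 in Junb, just past the printed stretch, against 13.6%. Jun, which also changed in the connecting tubule, and Jund had no match to any of these motifs. The 8 windows had 46.7 to 74.3% G and C, against a median of 52.7% over all promoters. The part of base content in these counts was not tested. A match is a description of letters, not a bound site.

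The 10 genes lie on 6 chromosomes of GRCm39. Fos is at chr12:85520658-85524047 on the plus strand, Fosb at chr7:19036621-19043976 on the minus strand and Zfp36 at chr7:28076209-28079710 on the minus strand. Junb (chr8:85701113-85705359), Ier2 (chr8:85387960-85389483) and Jund (chr8:71151599-71153265) share chromosome 8, with Jund on the plus strand and the other two on the minus strand. Jun (chr4:94937271-94940459) and Klf4 (chr4:55527139-55532528) share chromosome 4, both on the minus strand. Atf3 is at chr1:190902493-190950241 on the minus strand and Egr1 at chr18:34992876-34998049 on the plus strand. Jun, Junb, Jund and Ier2 have a single exon in the main transcript of GENCODE M39, which holds the whole message. Annotated genes overlap 5 of the members on the opposite strand: Junos over Jun, Prdx2 over Junb, Gm11175 over Jund, Gm55866 over Atf3 and Gm44710 over Zfp36. Whether the counting used strand is not given in the sources used here, so reads of these 5 genes could include their partners'.

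In sham kidneys the genes were highest in thin limb cells, endothelial cells, smooth muscle cells or pericytes and macrophages, and most members were lower in the thick ascending limb, distal convoluted tubule and proximal tubule. Thin limb cells had the highest mean of the 13 cell types for Fos, Fosb, Junb, Jund and Egr1. Endothelial cells had it for Jun, Klf4 and Ier2, and macrophages for Atf3 and Zfp36. The ratio of the highest to the lowest type ranged from 10.4 for Jund to 58.3 for Klf4, and was 52.8 for Egr1. These ratios and their order changed with the mitochondrial UMIs: in cells with at most 20% of them the ratio was 4.39 for Jund, 24.3 for Klf4 and 56.0 for Egr1, the highest of the 10. With mitochondrial UMIs left out of the totals it was 7.82, 42.2 and 50.3. Levels were compared between cell types for each gene, not between genes.

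**Figure D1:**
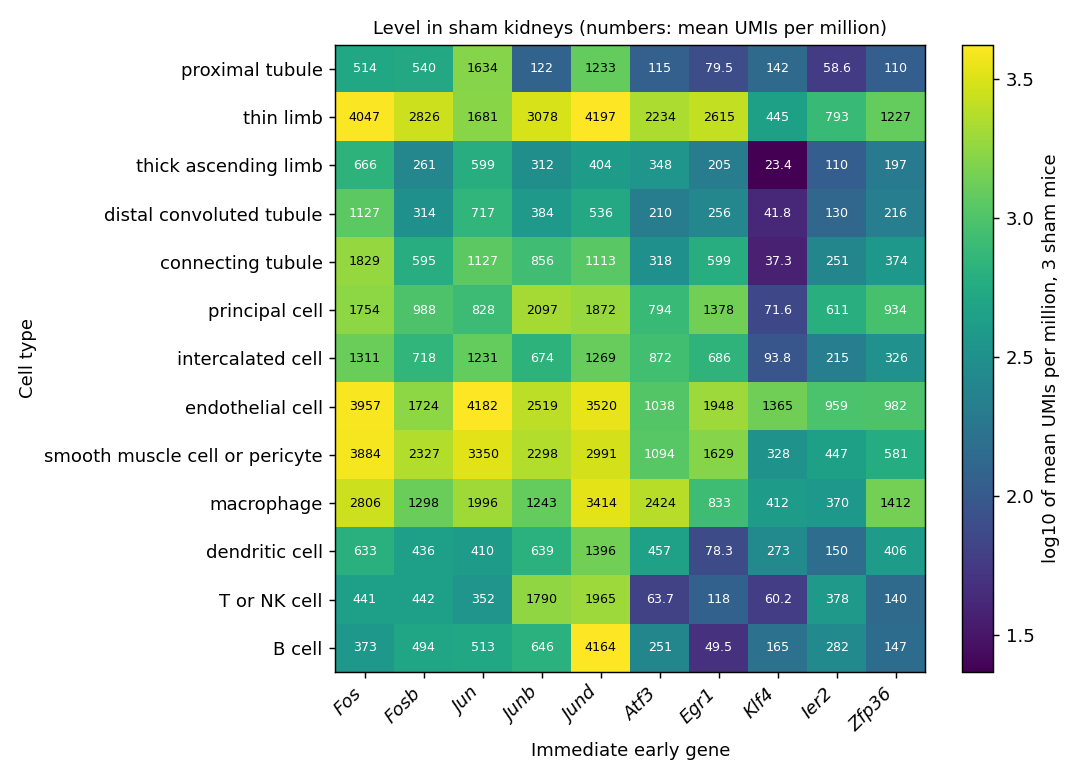
Mean level of each immediate early gene (columns) in 13 cell types (rows) of 3 sham mice, in CPM, with color on a log10 scale. Thin limb, endothelial, smooth muscle or pericyte and macrophage rows are bright across most genes, and the Junb, Ier2, Zfp36, Atf3 and Egr1 squares of the proximal tubule are dark.

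Fos, the AP-1 subunit most used as a mark of recent stimulation, was at 4047 CPM ± 661 in thin limb cells, 3957 ± 409 in endothelial cells and 3884 ± 48.7 in smooth muscle cells or pericytes (mean ± SD, n = 3). The ranges of neighbors among these overlapped. Macrophages followed at 2806 ± 470, apart from the type above. Connecting tubule (1829 ± 200) and principal cells (1754 ± 149) overlapped, intercalated cells (1311 ± 108) and distal convoluted tubule (1127 ± 31.9) each stood apart from the next, and thick ascending limb (666 ± 57.4), dendritic cells, proximal tubule (514 ± 71.6), T or NK cells and B cells (373 ± 125) overlapped with their neighbors.

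Jun was in another order. Endothelial cells (4182 CPM ± 213) stood above smooth muscle cells or pericytes (3350 ± 135), which stood above all other types without overlap. Proximal tubule cells, which were among the 3 lowest types for Fos, held the fifth place for Jun at 1634 ± 339 and overlapped with thin limb cells (1681 ± 299). Across the 72 sums of 12 cell types and 6 mice, Jun had its weakest correlation with Junb (r = 0.31 on log2(CPM + 1)), while Fos and Egr1 had r = 0.92 and Junb and Ier2 r = 0.94. These sums share mice and total UMIs, so the values are descriptions.

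Junb and Ier2 set the proximal tubule apart from every other type. Junb was at 122 CPM ± 33.4 there, against 312 ± 81.3 in the next lowest type, the thick ascending limb, and 3078 ± 1232 in thin limb cells. Ier2 was at 58.6 ± 7.37, against 110 ± 21.4 in the thick ascending limb. The ranges did not overlap in either case. All other neighbors in the order of Junb overlapped.

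Egr1 was at 2615 CPM ± 453 in thin limb cells, apart from endothelial cells at 1948 ± 266, and was lowest in B cells (49.5 ± 11.5), dendritic cells (78.3 ± 44.2) and proximal tubule (79.5 ± 6.17), whose neighbors overlapped. Klf4, a factor known for its part in endothelial quiescence, was at 1365 ± 206 in endothelial cells, apart from the next type, thin limb cells, at 445 ± 31.6. It was lowest in the thick ascending limb at 23.4 ± 3.90, apart from the connecting tubule at 37.3 ± 7.24.

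Atf3 was at 2424 CPM ± 435 in macrophages and 2234 ± 16.5 in thin limb cells, which overlapped and stood apart from the third type, smooth muscle cells or pericytes, at 1094 ± 141. T or NK cells had the lowest level, 63.7 ± 12.4. Zfp36 was at 1412 ± 383 in macrophages, 1227 ± 407 in thin limb cells and 982 ± 269 in endothelial cells, with overlap, and at 110 ± 27.9 in proximal tubule. Jund was high in B cells (4164 ± 1714) as well as in thin limb cells (4197 ± 1544), and these 2 did not differ beyond their spread. Fosb was highest in thin limb cells (2826 ± 368) and lowest in the thick ascending limb (261 ± 24.7).

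Of the tubule segments with low levels, the thick ascending limb and distal convoluted tubule had a large mitochondrial share, at a median of 32.4 to 34.7% and 31.6 to 35.5% of a cell's UMIs in sham mice, against 5.21 to 8.46% in thin limb cells. The proximal tubule was also low for most members, but its share was 18.1 to 24.1%. That was near the connecting tubule (20.6 to 24.9%) and intercalated cells (21.6 to 23.9%). In cells with at most 20% mitochondrial UMIs, Fos in the thick ascending limb was at 1642 CPM and in the distal convoluted tubule at 2837, compared with 666 and 1127 in all cells. In the same cells the highest type changed for Fos (smooth muscle cells or pericytes) and Jund (B cells), and for no other member. The lowest type changed for Fosb (dendritic cells) and Klf4 (connecting tubule).

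Mice of the same group differed in some members across all their cell types. The mouse sham 2 had the highest level of Junb, Jund and Zfp36 among the sham mice in 13 of 13 cell types. The median ratio to the mean of the other sham mice was 1.72, 1.64 and 1.50. The mouse DOCA-salt 2 had the lowest Jund of its group in 13 of 13 cell types (median ratio 0.699) and the lowest Junb in 12 of 13 (0.687). DOCA-salt 1 had the highest Zfp36 of its group in 13 of 13 (1.28). DOCA-salt 1 also had the highest Fos of its group in 12 of 13 (1.21). What set these mice apart was not tested. Results that rest on them are given without them below.

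**Figure D2:**
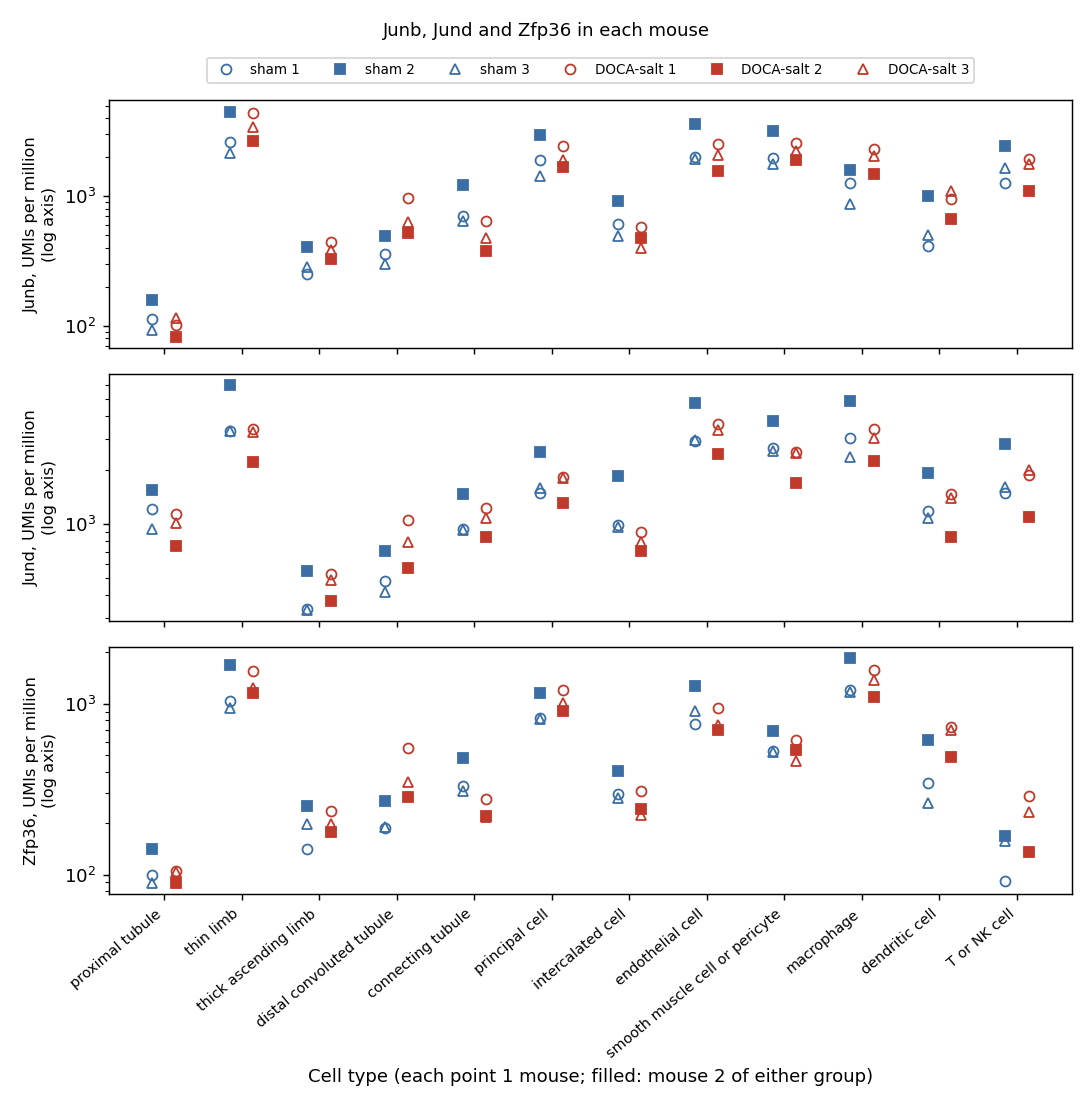
Levels of Junb, Jund and Zfp36 in CPM (log axis) in 12 cell types, with 1 point per mouse, blue for sham and red for DOCA-salt, and filled squares for sham 2 and DOCA-salt 2. Sham 2 is the top blue point in each column, and DOCA-salt 2 is the lowest red point for Jund in each column.

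Over all cells, 0 of the 10 genes changed with DOCA-salt in either direction, where 11.5% of the 19658 genes tested were called higher and 5.72% lower (edgeR, adjusted p under 0.05). None had an unadjusted p under 0.05, where 31.4% of all genes had one, and DESeq2 also called 0. The median log2 change of the members was -0.07 and that of all genes -0.02. Fos was at 1042, 1057 and 1053 CPM in sham mice and 1291, 1151 and 1205 in DOCA-salt mice. These groups did not overlap, but the fitted log2 change was 0.09 ± 0.12 (SE, edgeR adjusted p = 0.631). Jund was at 1329, 1983 and 1148 against 1419, 1004 and 1414, with overlap. In such sums, the share of each cell type and its level per cell cannot be told apart. The mean share of a gene's UMIs that came from macrophages was larger in DOCA-salt mice for all 10 genes. Macrophages gave 4.93% ± 0.559 of all Atf3 UMIs in sham mice and 14.6% ± 3.75 in DOCA-salt mice, and 4.09% ± 0.224 and 15.1% ± 3.71 of Zfp36 UMIs. They held 0.797% and 3.65% of all UMIs. No test was made of these shares.

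**Figure D3:**
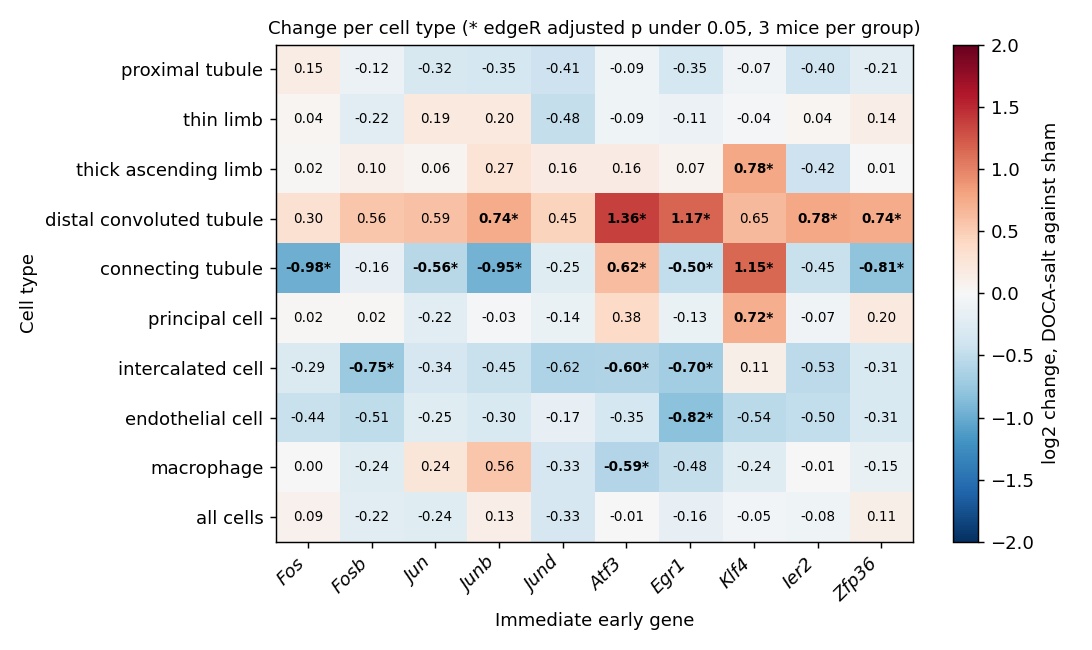
Log2 change from sham to DOCA-salt mice (color) of each immediate early gene in all cells and in 9 cell types, with an asterisk where the edgeR adjusted p was under 0.05. The distal convoluted tubule row is red across the genes, while the connecting tubule row is blue for Fos, Junb and Zfp36 and red for Klf4 and Atf3.

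In the distal convoluted tubule, the segment that reabsorbs salt through the thiazide-sensitive cotransporter Slc12a3, 5 of the 10 genes rose and 0 fell in DOCA-salt mice. In this type 4.16% of the 9891 genes tested were called higher and 2.55% lower. The median log2 change was 0.69 for the members and -0.01 for all genes. A further 3 members had an unadjusted p under 0.05 and the same direction, 0 had one in the other direction, and 18.7% of all genes had one in either direction. DESeq2 called 6 higher and 0 lower. The share of all genes that DESeq2 called was not counted, here or in the types below.

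Atf3 rose the most. It was at 281, 151 and 197 CPM in sham mice and 663, 660 and 458 in DOCA-salt mice, so every DOCA-salt mouse was above every sham mouse. The log2 change was 1.36 ± 0.21 (SE, edgeR adjusted p = 0.000489). Egr1 was at 236, 296 and 237 CPM against 919, 487 and 498, again without overlap, and DOCA-salt 1 was far above the other two. Its log2 change was 1.17 ± 0.21 (edgeR adjusted p = 0.00178).

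The other called genes had smaller changes. Ier2 was at 121, 161 and 109 CPM against 351, 191 and 185 (log2 change 0.78 ± 0.22, edgeR adjusted p = 0.0403). Zfp36 was at 188, 271 and 190 against 554, 286 and 347 (0.74 ± 0.21, edgeR adjusted p = 0.0434). Junb was at 356, 494 and 300 against 971, 516 and 628 (0.74 ± 0.21, edgeR adjusted p = 0.0451). In each of these the groups did not overlap, but sham 2, the highest sham mouse for each, was close to the lowest DOCA-salt mouse. Jun (0.59 ± 0.18, edgeR adjusted p = 0.0569), Fosb, Klf4, Jund and Fos (0.30 ± 0.18, edgeR adjusted p = 0.414) did not pass the test.

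The calls of Atf3 and Egr1 held without any one of the 6 mice, with log2 changes of 1.18 to 1.62 for Atf3 and 0.83 to 1.32 for Egr1. Those of Ier2, Zfp36 and Junb did not. Only 2 members were called without sham 1 (Ier2 0.73, Zfp36 0.65 and Junb 0.70), without sham 3 (0.66, 0.66 and 0.60) or without DOCA-salt 1 (0.43, 0.43 and 0.46). Without DOCA-salt 3 the count was 3, as Zfp36 (0.83) and Junb (0.82) were lost, and without sham 2 it was 7. When each cell was typed by its own detected markers in place of its cluster, Atf3 alone was called, at 0.83 (edgeR adjusted p = 0.0124, the highest under any alternative), and Egr1 was at 0.59.

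Other measures moved with this result. The median mitochondrial share of distal convoluted tubule cells was 31.6 to 35.5% in sham mice and 26.1 to 29.9% in DOCA-salt mice, and the median UMIs per cell were 3384 to 7097 and 6850 to 10636. In cells with 30 to 50% mitochondrial UMIs the groups overlapped: Egr1 was at 286, 415 and 270 CPM of non-mitochondrial UMIs in sham mice and 364, 324 and 259 in DOCA-salt mice, and Atf3 at 378, 208 and 169 and at 411, 453 and 326. In cells with 10 to 20%, where only sham 1 and sham 3 had 20 cells or more, Egr1 was at 793 and 696 against 2104, 1334 and 1045, and Atf3 at 514 and 725 against 1130, 1486 and 1008. Below 10% no sham mouse had 20 cells, while the DOCA-salt mice had 29, 27 and 24, with Egr1 at 1940, 1504 and 1215 and Atf3 at 1521, 2342 and 739. A limit of 20% keeps these cells, so it did not match the groups for mitochondrial share. With cells of at most 20% mitochondrial UMIs only, 3 members were called, Atf3 (1.17), Egr1 (1.02) and Ier2 (0.92). In those cells the log2 changes of Junb (0.60) and Zfp36 (0.63) did not pass the test, and those of Klf4 (-0.59), Fosb (-0.13), Jund (-0.06) and Jun (-0.02), uncalled there as in all cells, had the other sign. The 6 distal convoluted tubule markers summed to 10387 to 12288 CPM in sham mice and 7685 to 8487 in DOCA-salt mice. The 9 macrophage markers summed to 10.3 to 23.5 and 46.1 to 47.7 CPM, with 8 and 9 of them detected. The 6 thin limb markers were at 53.5 to 76.0 and 90.2 to 120 CPM. The 7 fibroblast markers were at 0 to 2.54 and 8.05 to 16.4, and the 6 cycling cell markers at 1.14 to 6.61 and 12.5 to 29.7. The part of these in the result was not tested.

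In the connecting tubule, the next segment along the nephron and a target of mineralocorticoids, 5 genes fell and 2 rose in DOCA-salt mice. In this type 11.8% of the 9988 genes tested were called lower and 11.6% higher, so many genes changed there. The median log2 change was -0.48 for the members and -0.01 for all genes. Of the 8 members with an unadjusted p under 0.05, 6 were lower and 2 higher, where 34.6% of all genes passed that p. DESeq2 called 5 lower and 2 higher.

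Fos fell from 1655, 2048 and 1784 CPM in sham mice to 1326, 1029 and 764 in DOCA-salt mice, with no overlap (log2 change -0.98 ± 0.19, edgeR adjusted p = 0.0017). Zfp36 was at 332, 480 and 310 against 279, 219 and 218 (-0.81 ± 0.18, edgeR adjusted p = 0.00399). Junb was at 699, 1224 and 643 against 644, 379 and 471 (-0.95 ± 0.23, edgeR adjusted p = 0.00847). Here DOCA-salt 1 overlapped with sham 3, and sham 2 was far above all others.

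Jun was at 1037, 1219 and 1126 CPM against 895, 923 and 765 (-0.56 ± 0.15, edgeR adjusted p = 0.0152). Egr1 was at 517, 711 and 571 against 564, 431 and 438, with overlap (-0.50 ± 0.16, edgeR adjusted p = 0.0389). Ier2 (-0.45 ± 0.17, edgeR adjusted p = 0.0676), Jund and Fosb did not pass the test. The direction of Fosb (-0.16) turned when sums were scaled by library size only, a scaling that shifted the median of all genes by 0.17 in this type.

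Against these falls, Klf4 and Atf3 rose. Klf4 was at 42.5, 40.3 and 29.0 CPM in sham mice and 101, 92.1 and 84.0 in DOCA-salt mice, and each DOCA-salt mouse was well above each sham mouse (log2 change 1.15 ± 0.18, edgeR adjusted p = 0.000327). Atf3 was at 327, 324 and 304 against 477, 664 and 510 (0.62 ± 0.17, edgeR adjusted p = 0.0144). Klf4, Fos and Zfp36 held without any one mouse. Junb was lost without DOCA-salt 2 (-0.79, edgeR adjusted p = 0.0502). Jun was lost without sham 3 or DOCA-salt 3 (-0.55 and -0.48), and Atf3 without sham 3 or DOCA-salt 2 (0.60 and 0.44). Egr1 was lost without any mouse but DOCA-salt 1 (-0.57 to -0.38).

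The clustered cells were 1 cluster of 1003 cells, led by Egfem1, Trpv5, Scnn1g and S100g. A larger cluster of 4387 cells also scored highest for the connecting tubule, with S100g and Calb1 among its leading genes. It stayed unnamed because proximal tubule markers scored near (0.361 and 0.244), and its cells had few UMIs (median 0.111 of the median of their mouse). Typing each cell by its own markers gave another set, of 170 to 658 cells per mouse, in which 0 members were called in either direction, Fos was at -0.34, and Atf3 (-0.25) and Klf4 (-0.01) had the other sign. The identity genes of the named cluster differed between groups, and the median mitochondrial share of its cells was 20.6 to 24.9% in sham mice and 16.7 to 20.4% in DOCA-salt mice. Connecting tubule markers summed to 41371 to 55573 CPM in sham mice and 22991 to 30869 in DOCA-salt mice, and principal cell markers to 6117 to 7898 and 2309 to 2767. Monocyte markers were at 2.83 to 7.04 and 65.3 to 107 CPM, with 6 and 5 of 7 detected, and macrophage markers at 8.32 to 11.9 and 26.2 to 48.0, with 7 and 9 of 9 detected. Thin limb markers were at 133 to 185 and 292 to 437 CPM, and intercalated cell markers at 380 to 548 and 92.7 to 111. The part of these differences in the result was not tested. Within cells of 30 to 50% mitochondrial UMIs the groups were still apart for Fos, at 964, 1252 and 1605 CPM of non-mitochondrial UMIs in sham mice and 558, 447 and 657 in DOCA-salt mice. Within 10 to 20% they were at 2737, 3233 and 2911 against 1564, 1352 and 1040. Atf3 overlapped in both ranges, at 259, 258 and 304 against 247, 378 and 478 within 30 to 50% and at 520, 440 and 521 against 474, 859 and 572 within 10 to 20%. Klf4 overlapped within 30 to 50%, at 18.1, 21.0 and 19.8 against 14.5, 28.7 and 56.3, and was apart within 10 to 20%, at 89.0, 57.5 and 56.0 against 105, 138 and 116. Zfp36 overlapped within 30 to 50%, at 253, 158 and 237 against 268, 109 and 216, and was apart within 10 to 20%, at 549, 813 and 537 against 299, 327 and 352. Below 10% no sham mouse had 20 cells, while the DOCA-salt mice had 22, 33 and 23 cells. In these cells Klf4 was at 221, 128 and 128 and Atf3 at 827, 969 and 800. The part of these cells in the rises of Klf4 and Atf3 was not tested.

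**Figure D4:**
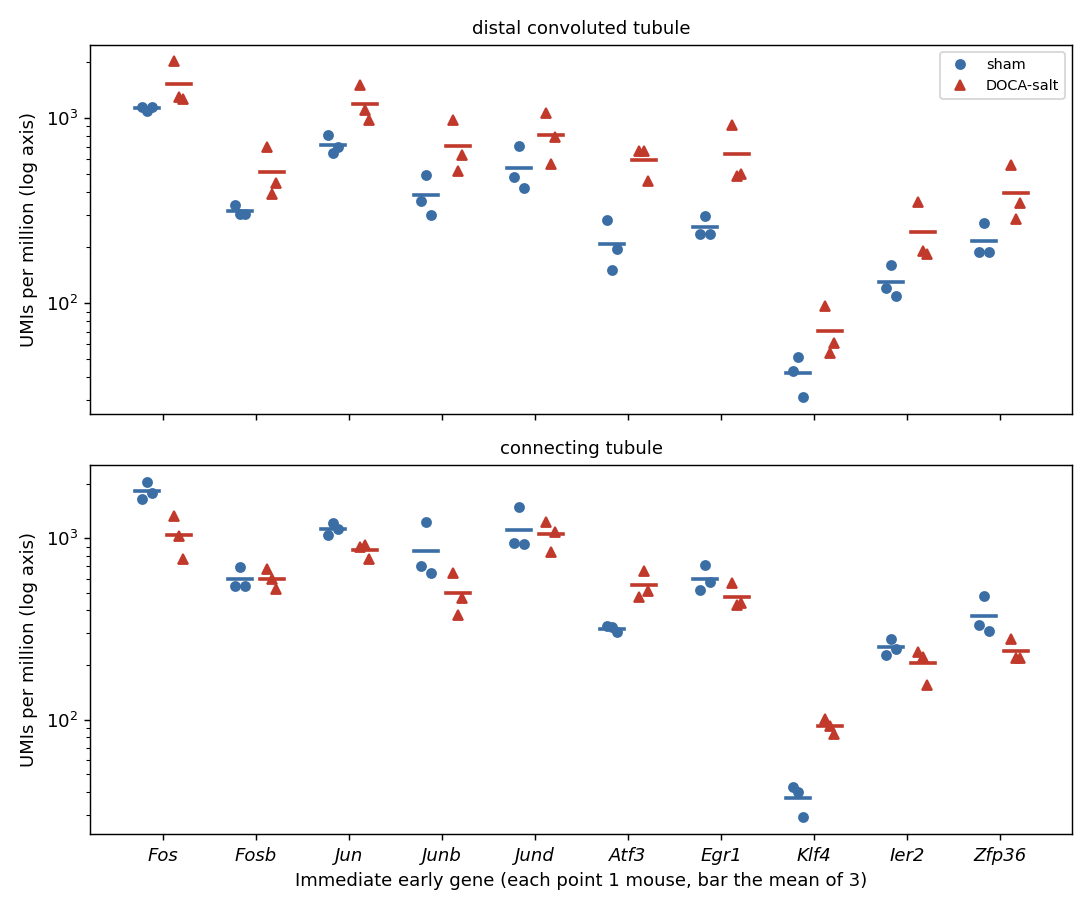
Levels of the 10 genes in CPM (log axis) in the distal convoluted tubule (top) and the connecting tubule (bottom), with 1 point per mouse and a bar at the mean of 3 mice, for sham and DOCA-salt. DOCA-salt points of Atf3 and Egr1 lie above the sham points in the upper panel, while those of Fos, Jun and Zfp36 lie below them in the lower panel.

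The changes in these 2 neighboring segments were set against each other in a model with both sums of each mouse and the mouse as a block. This pair was chosen after the changes in both were seen. For 9 of the 10 genes the change was higher in the distal convoluted tubule than in the connecting tubule, where 7.03% of all genes tested were called in that direction and 4.02% in the other. The largest differences of the log2 change were 1.65 for Junb (edgeR adjusted p = 5.68e-10), 1.62 for Egr1 (4.24e-09) and 1.50 for Zfp36 (3.18e-08). Fos differed by 1.28, Ier2 by 1.21, Jun by 1.14, Atf3 by 0.76, Fosb by 0.68 and Jund by 0.67. For Klf4 the difference was -0.53 (edgeR adjusted p = 0.142), and it was called without DOCA-salt 1 (-0.75, edgeR adjusted p = 0.0230). The count of genes with a higher change was 9 without each of the 6 mice in turn. The differences were not recomputed with a finer clustering, or with cells typed by their own markers, where all connecting tubule calls were lost. With cells of at most 20% mitochondrial UMIs it was 6, and Fosb (0.12), Jun (0.57) and Jund (0.33) were not called, while Klf4 was (-1.56).

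Klf4 was also called higher in sums of principal cells and thick ascending limb cells. In principal cells, which take up sodium under mineralocorticoids, it was at 56.9, 92.1 and 65.7 CPM in sham mice and 105, 98.3 and 141 in DOCA-salt mice, with no overlap but sham 2 close to DOCA-salt 2 (log2 change 0.72 ± 0.19, edgeR adjusted p = 0.0367). It was the only 1 of 10 members called there, where 4.65% of 10416 genes were called higher and 3.60% lower. In the thick ascending limb it was at 27.1, 19.3 and 23.9 CPM against 48.2, 45.8 and 31.4 (0.78 ± 0.19, edgeR adjusted p = 0.042), again 1 of 10, where 1.99% of 12284 genes were called higher and 1.33% lower. In principal cells 2 members had an unadjusted p under 0.05, both higher, where 22.8% of all genes had one. In the thick ascending limb 2 had one, Klf4 and, lower, Ier2 (-0.42), where 14.8% of all genes did.

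These calls were near the threshold. In principal cells the call was lost without sham 1 (0.57), sham 3 (0.69), DOCA-salt 1 (0.80) or DOCA-salt 3 (0.54). In the thick ascending limb it was lost without sham 1 (0.91), sham 3 (0.82), DOCA-salt 1 (0.68) or DOCA-salt 2 (0.71). There a finer clustering (resolution 2) turned the direction, to -0.47 (edgeR adjusted p = 0.25, with a range of 2.05e-05 to 0.528 over all alternatives). Most thick ascending limb cells did not show the rise. Within 30 to 50% mitochondrial UMIs, where most of these cells lay, Klf4 was at 27.6, 22.1 and 25.5 CPM of non-mitochondrial UMIs in sham mice and 20.2, 19.4 and 16.7 in DOCA-salt mice, so every DOCA-salt mouse was below every sham mouse. Within 20 to 30% it was at 38.1, 21.7 and 35.3 against 15.5, 34.3 and 17.2, and within 10 to 20% at 61.0, 46.3 and 51.5 against 51.2, 92.3 and 27.7, with overlap in both. Below 10% no sham mouse had 20 cells, while the DOCA-salt mice had 49, 27 and 25 cells with Klf4 at 294, 383 and 428. In principal cells it was at 70.8, 117 and 84.1 against 123, 118 and 174 below 10%. Macrophage markers were at 5.12 to 12.5 CPM in sham and 26.6 to 67.5 in DOCA-salt principal cells, and at 7.17 to 9.94 and 25.0 to 39.8 in the thick ascending limb. Endothelial markers were at 25.9 to 31.5 and 37.7 to 59.5 in the thick ascending limb, and thin limb markers at 93.8 to 98.0 and 157 to 211. In principal cells the groups overlapped for both of these lists. Their part was not tested.

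In intercalated cells, which secrete acid or base, 3 members fell and 0 rose, where 2.89% of 11904 genes were called lower and 3.27% higher. A further 4 had an unadjusted p under 0.05, all lower, where 20.8% of all genes had one in either direction, and DESeq2 called 3 lower and 0 higher. The median log2 change was -0.49 for the members and 0.00 for all genes. Fosb was at 655, 827 and 672 CPM in sham mice and 429, 446 and 383 in DOCA-salt mice (log2 change -0.75 ± 0.13, edgeR adjusted p = 0.00853). Egr1 was at 652, 796 and 610 against 472, 465 and 308 (-0.70 ± 0.18, edgeR adjusted p = 0.0413). Atf3 was at 1005, 786 and 825 against 553, 667 and 473 (-0.60 ± 0.15, edgeR adjusted p = 0.0445). The groups did not overlap for any of these.

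Fosb was lost without DOCA-salt 3 (-0.68). Egr1 was lost without any mouse but sham 2 (-0.81 to -0.52), and Atf3 without sham 1, sham 3, DOCA-salt 1 or DOCA-salt 3 (-0.63 to -0.49). In cells with at most 20% mitochondrial UMIs 0 members were called, and the log2 changes were smaller, at -0.34 for Fosb, -0.36 for Egr1 and -0.28 for Atf3. The median mitochondrial share was 21.6 to 23.9% in sham and 26.1 to 27.5% in DOCA-salt intercalated cells. Within cells of 30 to 50% the groups were apart for Fosb, at 672, 875 and 539 CPM of non-mitochondrial UMIs against 320, 346 and 362. Within 10 to 20% they were at 921, 1068 and 1072 against 883, 825 and 706. Egr1 was apart within 30 to 50%, at 684, 709 and 487 against 341, 386 and 278, and overlapped within 10 to 20%, at 1017, 1060 and 1028 against 1026, 819 and 635. Atf3 was likewise apart within 30 to 50%, at 1012, 851 and 718 against 456, 559 and 376, and overlapped within 10 to 20%, at 1405, 1044 and 1175 against 1056, 1144 and 899. The type held 2 clusters, in other shares between the groups. The one led by Slc26a4 held 210, 165 and 221 cells in sham mice and 167, 120 and 131 in DOCA-salt mice, and the one led by Aqp6 and Slc4a1 held 179, 107 and 158 and 185, 187 and 233. In the one led by Slc26a4, the anion exchanger of base-secreting cells, Fosb was at 722, 865 and 668 CPM against 332, 445 and 282. In the one led by Aqp6 and Slc4a1, markers of acid-secreting cells, it was at 555, 735 and 680 against 528, 447 and 454. Egr1 was at 680, 792 and 598 against 301, 466 and 233 in the former and, with overlap, at 610, 807 and 633 against 646, 465 and 360 in the latter. Atf3 was at 1006, 736 and 733 against 370, 526 and 270 in the former and at 1004, 906 and 991 against 740, 762 and 613 in the latter. The difference between the clusters, and the part of their shares in the changes of the whole type, were not tested. Markers of other types also moved. In sums of intercalated cells the 7 fibroblast markers were at 22.6 to 36.2 CPM in sham mice and 62.2 to 83.1 in DOCA-salt mice (6 and 7 detected), the 9 macrophage markers at 8.16 to 13 and 20.3 to 34.7 (8 and 9 detected) and the 10 proximal tubule markers at 467 to 766 and 351 to 448 (10 detected in each). Their part in the result was not tested.

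In endothelial cells Egr1 fell, and it was the only 1 of 10 members called, where 4.41% of 12667 genes were called lower and 4.97% higher. It was at 1647, 2045 and 2152 CPM in sham mice and 1170, 1027 and 1138 in DOCA-salt mice, with no overlap (log2 change -0.82 ± 0.15, edgeR adjusted p = 0.00744). The call held without any one mouse (-0.94 to -0.70). All 10 members had a negative log2 change (median -0.40, against -0.03 for all genes), and 5 had an unadjusted p under 0.05 (23.2% of all genes had one). DESeq2 called 5 lower and 0 higher, and the share of all genes that it called was not counted. Klf4 was at 1131, 1518 and 1445 CPM against 1081, 883 and 877 (-0.54 ± 0.16, edgeR adjusted p = 0.0552), Fosb at 1543, 1996 and 1633 against 1342, 1080 and 1245 (-0.51 ± 0.15, edgeR adjusted p = 0.0564) and Ier2 at 827, 1083 and 968 against 788, 621 and 643 (-0.50 ± 0.15, edgeR adjusted p = 0.0615).

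The type held 2 clusters in other shares between the groups. Cluster 9 had 244 to 298 cells per sham mouse and 410 to 579 per DOCA-salt mouse, and cluster 11 had 205 to 256 and 143 to 168. Egr1 was lower in DOCA-salt mice in both. It was at 1237, 1296 and 1226 CPM against 997, 900 and 938 in cluster 9, and at 1858, 2454 and 2479 against 1424, 1361 and 1627 in cluster 11. Klf4 was at 756, 769 and 713 against 710, 630 and 603 in cluster 9, and at 1323, 1927 and 1704 against 1627, 1544 and 1549, with overlap, in cluster 11. In the endothelial sums the 6 thin limb markers were at 1667 to 2517 CPM in sham mice and 821 to 1240 in DOCA-salt mice (6 and 5 detected), the 10 proximal tubule markers at 693 to 1164 and 447 to 646 (10 detected in each) and the 12 endothelial markers at 9877 to 10880 and 12355 to 13385. Median UMIs per cell were 3469 to 4281 and 5644 to 7100. The part of these and of the cluster shares in the changes of the whole type was not tested.

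In macrophages Atf3, which is known to restrain Toll-like receptor signaling, fell, and it was the only 1 of 10 members called, where 3.24% of 9352 genes were called lower and 3.13% higher. It was at 2913, 2082 and 2277 CPM in sham mice and 1684, 1852 and 1610 in DOCA-salt mice, with no overlap (log2 change -0.59 ± 0.17, edgeR adjusted p = 0.0494). The call rested on each mouse but sham 2: without sham 1, sham 3, DOCA-salt 1, DOCA-salt 2 or DOCA-salt 3 it was lost, at -0.64 to -0.48. A total of 3 members had an unadjusted p under 0.05, where 18.7% of all genes had one. Junb was at 1265, 1603 and 862 CPM against 2302, 1488 and 2053, with overlap (0.56 ± 0.21, edgeR adjusted p = 0.151), and it was called without sham 2 (0.80, edgeR adjusted p = 0.0211). Egr1 was at 859, 1031 and 610 against 649, 591 and 666 (-0.48 ± 0.18, edgeR adjusted p = 0.132).

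The clusters that held most macrophages differed between the groups. Cluster 34 held 83 to 101 of the 131 to 159 macrophages of a sham mouse, and 58 to 145 of the 449 to 704 of a DOCA-salt mouse, where cluster 33 held 192 to 216. Clusters 37, 42 and 47 reached 10 cells in DOCA-salt mice only. Within cluster 34 Atf3 was at 3449, 2527 and 2547 CPM in sham mice and 2432, 2476 and 1964 in DOCA-salt mice. In the cells of cluster 47 it was at 530, 513 and 341. When only clusters with at least 10 cells in each of the 6 mice were summed, 0 members were called. Those sums held fewer cells, 96 to 120 per sham mouse and 100 to 301 per DOCA-salt mouse. The 9 macrophage markers were at 10985 to 12096 CPM in sham and 13451 to 14165 in DOCA-salt macrophages. In the same sums the 10 proximal tubule markers were at 1198 to 1736 and 722 to 966, the 6 cycling cell markers at 11.4 to 53.8 and 93.7 to 222, and the 6 neutrophil markers at 17 to 23.4 and 60.0 to 103 (4 and 6 detected). Their part in the change of Atf3 was not tested.

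In proximal tubule cells 0 of the 10 members were called by edgeR, where 5.02% of 16093 genes were called higher and 2.34% lower. Of the members, 2 had an unadjusted p under 0.05, where 24.3% of all genes had one, Egr1 (-0.35 ± 0.10, edgeR adjusted p = 0.0715) and Ier2 (-0.40 ± 0.12, edgeR adjusted p = 0.0866), and DESeq2 called 1 lower. In thin limb cells 0 were called by edgeR and 0 by DESeq2, and 0 had an unadjusted p under 0.05, where 11% of all genes had one. In this type 0.490% of 11623 genes were called higher and 0.181% lower. A p above the threshold does not show that levels were equal.

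Changes were also compared with those of the proximal tubule in 3 further pairs. For macrophages minus proximal tubule the difference was 0.99 for Junb (edgeR adjusted p = 2.27e-08), 0.64 for Jun (0.000877), 0.48 for Ier2 (0.0139) and -0.42 for Atf3 (0.0404). Here 3.05% of genes were called in the higher and 3.49% in the lower direction. The changes in the 2 types were 0.56 and -0.35 for Junb, 0.24 and -0.32 for Jun, -0.01 and -0.40 for Ier2 and -0.59 and -0.09 for Atf3. Of these, only that of Atf3 in macrophages was called within its type. The macrophage clusters had other shares in the groups, and their part in these differences was not tested. The calls of Junb and Jun held without any one mouse. Ier2 was lost without sham 1 (0.40) or DOCA-salt 2 (0.43), and Atf3 without sham 2 (-0.33), DOCA-salt 1 (-0.33) or DOCA-salt 3 (-0.41). In the thick ascending limb the changes of 4 members were called higher than in the proximal tubule, where 2.70% of genes were called higher and 3.45% lower: Klf4 by 0.86 (edgeR adjusted p = 0.00341), Junb by 0.62 (0.0069), Jund by 0.58 (0.00628) and Egr1 by 0.43 (0.0191). The changes in the 2 types were 0.78 and -0.07 for Klf4, 0.27 and -0.35 for Junb, 0.16 and -0.41 for Jund and 0.07 and -0.35 for Egr1. Klf4 and Jund held without any one mouse, but the rise of Klf4 in the thick ascending limb that enters this difference turned direction at resolution 2 (-0.47) and was not seen within 30 to 50% mitochondrial UMIs, as above. Junb was lost without sham 1 (0.54) or DOCA-salt 2 (0.57), and Egr1 without sham 1 (0.41), DOCA-salt 1 (0.45) or DOCA-salt 2 (0.35). In endothelial cells the changes of 2 members were called lower than in the proximal tubule, where 6.17% of genes were called lower and 4.33% higher. The difference was -0.56 for Fos (edgeR adjusted p = 0.0369) and -0.44 for Egr1 (0.0337). The changes in the 2 types were -0.44 and 0.15 for Fos and -0.82 and -0.35 for Egr1. Fos was lost without any mouse but sham 1 (-0.59 to -0.45), and Egr1 without sham 3 or any of the DOCA-salt mice (-0.46 to -0.34). Without sham 1, Fosb (-0.60) and Klf4 (-0.85) were called as well. The pairs share the proximal tubule sums.

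**Figure D5:**
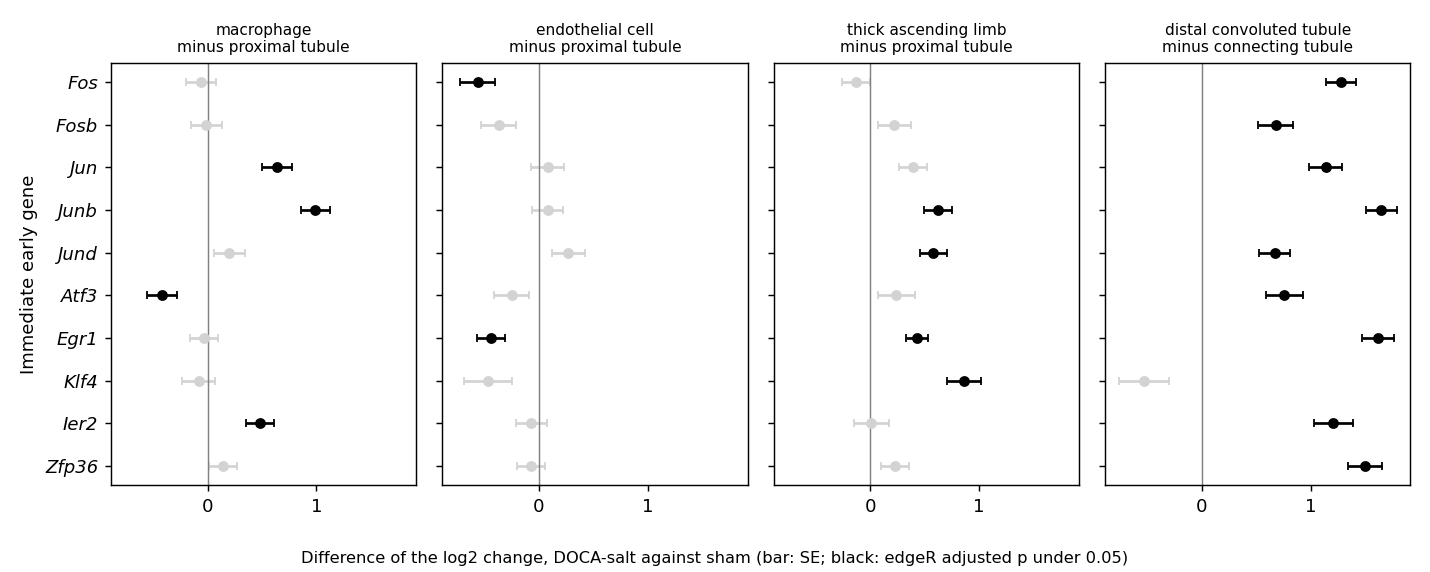
Difference of the log2 change (DOCA-salt against sham) between 2 cell types for each of the 10 genes in 4 pairs of types, with bars for the SE and black points where the edgeR adjusted p was under 0.05. In the panel for the distal convoluted tubule minus the connecting tubule 9 points are black and to the right of 0, and Klf4 lies to the left.

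Other genes of the same response were counted from lists, beside the share of all genes called in the same type. Of 38 other early response genes, 13 rose and 2 fell in the distal convoluted tubule (30 tested, median log2 change 0.62), where 4.16% of all genes were called higher and 2.55% lower. In the connecting tubule 9 rose and 9 fell (30 tested, -0.05), against 11.6% and 11.8% of all genes. In intercalated cells 1 rose and 11 fell (34 tested, -0.43), against 3.27% and 2.89%, and in principal cells 8 rose and 1 fell (33 tested, 0.35), against 4.65% and 3.60%. In macrophages 6 rose and 4 fell (36 tested, 0.08), against 3.13% and 3.24%. In endothelial cells 5 rose and 4 fell (38 tested, -0.07), against 4.97% and 4.41%. In the thick ascending limb 4 rose and 2 fell (34 tested, 0.21), against 1.99% and 1.33%. The proximal tubule had 2 higher and 0 lower (37 tested, 0.03), against 5.02% and 2.34%. Thin limb cells had 0 higher and 1 lower (36 tested, 0.15), against 0.490% and 0.181%.

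Plk2, a kinase of the stress response, had the largest change of this list in the distal convoluted tubule, the connecting tubule and intercalated cells. It was at 0.803 CPM ± 0.698 in sham mice and 33.3 ± 8.97 in DOCA-salt mice in the distal convoluted tubule (edgeR adjusted p = 3.11e-06), at 2.89 ± 0.970 and 75.2 ± 27.0 in the connecting tubule (1.08e-06) and at 2.16 ± 1.41 and 15.5 ± 3.60 in intercalated cells (0.00186), where it was the only gene of the list that rose. Plk2 was also called higher in principal cells, at 17.5 ± 6.39 and 58.4 ± 16.5 (edgeR adjusted p = 0.00117), and in endothelial cells, at 229 ± 66.4 and 397 ± 43.8 (0.0191). Endothelial markers were at 14.8 to 31.4 CPM in sham and 30.9 to 62.0 in DOCA-salt distal convoluted tubule sums, with overlap. Their part in the level of Plk2 was not tested. In the distal convoluted tubule the small GTPase gene Rhob was at 17.8 ± 1.91 and 128 ± 32.6 (edgeR adjusted p = 3.21e-07), Ier5 at 8.07 ± 2.27 and 29.2 ± 7.07 (0.000781) and the zinc finger factor Klf6 at 228 ± 73.7 and 679 ± 193 (0.000329). In the connecting tubule the factor Myc was at 2.96 ± 1.32 and 14.7 ± 3.60 (edgeR adjusted p = 0.0019), Socs3, an inhibitor of cytokine signaling, at 130 ± 9.14 and 35.4 ± 2.95 (9.19e-07), and the matricellular gene Ccn1 at 37.1 ± 5.22 and 149 ± 28.1 (1.29e-05). In intercalated cells the nuclear receptors Nr4a3 and Nr4a1 were at 3.70 ± 0.676 and 1.01 ± 0.576 (edgeR adjusted p = 0.0312) and at 53.9 ± 6.91 and 14.7 ± 2.61 (0.000335), and the factor Cebpd at 251 ± 49.8 and 93.4 ± 11.2 (0.000888). In principal cells Klf2 was at 61.8 ± 7.83 and 211 ± 66.9 (edgeR adjusted p = 0.000122).

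Of the 13 other AP-1 and partner factors, 4 rose and 0 fell in the distal convoluted tubule (10 tested, with 4.16% of all genes called higher and 2.55% lower), and 0 rose and 3 fell in intercalated cells (11 tested, 3.27% and 2.89%). In the distal convoluted tubule the Fos relative Fosl2 was at 2.96 CPM ± 1.68 and 18.1 ± 3.37 (edgeR adjusted p = 0.000771), Maff at 12 ± 2.98 and 36.1 ± 22.5 (0.0267) and Mafk at 18.1 ± 5.85 and 40.6 ± 5.47 (0.0134). In intercalated cells Maff was at 70.3 ± 20.1 and 31.0 ± 4.19 (edgeR adjusted p = 0.00791), Mafk at 83.2 ± 5.24 and 44.3 ± 1.96 (0.00203) and Atf4 at 118 ± 24.9 and 76.7 ± 4.92 (0.0383). Maff and Mafk, small Maf partners, thus fell in one type and rose in the other. In macrophages 2 of 12 tested rose and 0 fell (3.13% and 3.24% of all genes), and Fosl2 was at 15.3 ± 1.66 and 34.9 ± 3.03 (edgeR adjusted p = 0.0152). Macrophage clusters had other shares in the groups, and their part was not tested. Of the 19 upstream SRF and MAPK genes, 3 of 19 rose and 0 fell in the proximal tubule, where 5.02% of all genes were called higher and 2.34% lower. Elk3 was at 0.506 ± 0.108 and 1.10 ± 0.109 there (edgeR adjusted p = 0.0362), and Mrtfa, a coactivator of serum response factor, at 19.1 ± 0.644 and 29.3 ± 4.58 (0.0289). In endothelial cells Elk3 was at 229 ± 43.8 and 328 ± 13.2. The 12 endothelial markers were at 12.9 to 23.8 CPM in sham and 29.2 to 43.0 in DOCA-salt proximal tubule sums. Their part in the level of Elk3 was not tested. No other tested type had more than 2 called higher, and Mapkapk2 in the connecting tubule was the only one called lower in a type.

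Heat shock and ubiquitin genes, which also respond to digestion, were counted in the same way. Of 17, 6 rose and 4 fell in the connecting tubule (11.6% of all genes higher, 11.8% lower), 2 rose and 0 fell in the distal convoluted tubule (4.16% and 2.55%), 3 rose and 0 fell in the thick ascending limb (1.99% and 1.33%), 0 rose and 5 fell in macrophages (3.13% and 3.24%, median log2 change of the list -0.46), and 0 rose and 1 fell in intercalated cells (3.27% and 2.89%). The small heat shock gene Hspb1 was at 27.0 CPM ± 3.03 in sham and 193 ± 76.2 in DOCA-salt mice in the connecting tubule (edgeR adjusted p = 4.69e-06) and at 26.7 ± 10.9 and 87.8 ± 33.3 in the thick ascending limb (0.013). In macrophages the cochaperone Dnajb1 was at 598 ± 31.4 and 250 ± 80.1 (edgeR adjusted p = 0.000526) and Hspa1a at 2875 ± 889 and 1663 ± 406 (0.0265). The part of the macrophage clusters, whose shares differed between the groups, was not tested.

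Of 12 transcripts that Zfp36 is known to bind, 11 were tested in macrophages, and 2 rose and 4 fell there, where 3.13% of all genes were called higher and 3.24% lower. In the proximal tubule 4 of 9 tested rose and 0 fell (5.02% and 2.34% of all genes), where the 9 macrophage markers were at 41.5 to 68.9 CPM in sham and 69.1 to 80.3 in DOCA-salt mice, the 7 monocyte markers at 35.1 to 38.5 and 48.6 to 52.9 and the 7 fibroblast markers at 0.409 to 2.30 and 11.9 to 17.7. Their part was not tested. Over all cells 7 of 12 rose and 0 fell (11.5% and 5.72%). In macrophages the following levels were measured. The chemokine Ccl4 was at 20645 CPM ± 3402 in sham mice and 6995 ± 794 in DOCA-salt mice (edgeR adjusted p = 0.000182), Ccl3 at 5864 ± 471 and 2404 ± 259 (0.000254), and Tnf at 730 ± 22.2 and 317 ± 50.7 (0.000135). Il10 was at 6.08 ± 2.01 and 19.2 ± 2.91 (edgeR adjusted p = 0.0257). The macrophage clusters had other shares in the 2 groups, as above, and their part in these levels was not tested. Zfp36 itself was at 1212, 1854 and 1170 CPM in sham macrophages and 1586, 1104 and 1373 in DOCA-salt macrophages, with overlap (-0.15 ± 0.20, edgeR adjusted p = 0.761). In principal cells the chemokine Cxcl2 was at 5.16 ± 4.51 and 72.4 ± 8.52 (edgeR adjusted p = 4.39e-05), where 2 of 5 tested rose and 0 fell (4.65% and 3.60% of all genes). In the same sums the macrophage markers were at 5.12 to 12.5 CPM in sham and 26.6 to 67.5 in DOCA-salt mice and the monocyte markers at 3.26 to 5.73 and 29.5 to 46.5, and their part was not tested. In the distal convoluted tubule, where Zfp36 rose, 2 of 3 tested rose and 1 fell (4.16% and 2.55% of all genes). In the connecting tubule, where Zfp36 fell, 1 of 3 rose and 0 fell (11.6% and 11.8%). Cxcl2 rose in both, at 0.930 ± 0.845 and 13.2 ± 6.99 (edgeR adjusted p = 0.00204) and at 1.85 ± 0.865 and 31.5 ± 7.35 (7.53e-06). It also rose in the thick ascending limb and proximal tubule. Macrophage markers were higher in these types too, as above, and their part was not tested. Over all cells the chemokine Ccl2 was at 4.83 ± 1.58 and 37.1 ± 16.8 (edgeR adjusted p = 0.00153).

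The genes whose pattern was most like a member's were sought among 7264 other genes with a mean of at least 20 CPM, over 72 sums (12 cell types in 6 mice, log2(CPM + 1)). Junb was most like Morf4l1 (r = 0.91), Csrnp1 (0.90) and Ppp1r15a (0.88). Ier2 was most like Irf1 (0.89), Morf4l1 (0.89) and Csrnp1 (0.88), and Zfp36 like Ppp1r15a, Eid1 and Rtn4 (0.85 each). Jund was most like the ubiquitin gene Ubb (0.92), Egr1 like Zbtb4 (0.87), Fos like Gm26802 and Cpd (0.86 each) and Fosb like Rhob (0.83). Jun was most like Dennd6a (0.82), Atf3 like Vwa5a (0.88) and Klf4 like Tnfsf12 and Clic4 (0.90 each). The sums share mice and library totals, so these values describe the pattern over cell types and mice and are given without a test.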

How the data were processed

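Single cells of 3 sham and 3 DOCA-salt kidneys were profiled with 10x 3′ v3.1 libraries, 1 per mouse. The authors deposited filtered matrices of counts, whole numbers of UMIs by gene and cell barcode. Cell Ranger with GRCm39 made them. The submitters' notes name version 9.0.0 and the file header 8.0.1. The annotation release is not given in the sources used here. Barcodes with at most 50% mitochondrial and 5% hemoglobin UMIs were kept, and the highest Scrublet scores were removed as doublets (0.8% per 1000 barcodes). Cells were clustered with scanpy 1.11.5 (2000 variable genes without the 10 members and the gene lists, 30 components, 15 neighbors, Leiden resolution 1). Clusters were named from marker lists. A lead of 0.35 over the second class and a size of 50 cells, both needed for a name, were set after the clusters were seen.

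For each cell type, the counts of a mouse were added up and tested with edgeR 4.0.16 (TMM, quasi-likelihood, R 4.3.3), with p-values adjusted by Benjamini-Hochberg over all genes that passed the count filter and a threshold of 0.05. Differences between cell types were tested as an interaction with the mouse as a block. The mice are the replicates and the p-values measure the spread between them. All 10 members passed the filter in each type tested. The script was tested on simulated data.

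The 10 members and the gene lists were chosen with earlier results of these data known, and the comparison of distal convoluted and connecting tubule after its values were seen. Where genes of a list were named for a type, they were taken from the top of the order by absolute log2 change among the genes called, up to 4. Not every such gene is reported here. Mapkapk2, the only one of its list lower in a type, was named after its values were seen. Gene positions are from GENCODE M39 on GRCm39. Alternatives were DESeq2 1.42.0, other scalings and filters, the mouse number as a block, other cells or clusters, and each mouse left out.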

Additional observations from a re-analysis of the deposited data

Results flagged for a closer look

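The change with DOCA-salt differed between cell types for the genes below, by a test of the difference itself (edgeR, adjusted p under 0.05). Between the distal convoluted and the connecting tubule, a pair chosen after its values were seen, the difference of the log2 change was 1.65 for Junb, 1.62 for Egr1, 1.50 for Zfp36, 1.28 for Fos, 1.21 for Ier2, 1.14 for Jun, 0.76 for Atf3, 0.68 for Fosb and 0.67 for Jund. Between macrophages and proximal tubule it was 0.99 for Junb, 0.64 for Jun, 0.48 for Ier2 and -0.42 for Atf3. Between the thick ascending limb and proximal tubule it was 0.86 for Klf4, 0.62 for Junb, 0.58 for Jund and 0.43 for Egr1. Between endothelial cells and proximal tubule it was -0.56 for Fos and -0.44 for Egr1. Fits that left out a mouse lost the calls of Ier2 and Atf3 in macrophages and of Junb and Egr1 in the thick ascending limb. They also lost those of Fos and Egr1 in endothelial cells. The rise of Klf4 in the thick ascending limb turned direction at resolution 2. No difference was recomputed at that resolution or with cells typed by their own markers. Groups of 3 mice are too small for a test of single mice as outliers.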

How the results depend on the processing

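Of 1670 log2 changes recomputed under alternatives, 1549 kept their side of the threshold, 89 lost the call, 29 gained one and 3 called changes turned. Among the 1549, 106 uncalled changes had the other sign. Of 320 differences between types, 291 kept their side (18 of them uncalled, with the other sign), 25 lost and 4 gained a call. Of 280 sham levels recomputed with mitochondrial genes left out or in cells with at most 20% mitochondrial UMIs, 126 moved by more than the SD between mice. The causes of the changes below were not tested. The share of all genes called under each alternative was not counted, so the counts of members below have none beside them.

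With cells typed by their own markers, Atf3 (-0.25) and Klf4 (-0.01) turned in the connecting tubule, where 0 members were called in either direction, 1 rose in the distal convoluted tubule, and 0 were called in macrophages, principal cells and thick ascending limb. At Leiden resolution 2, Klf4 turned in the thick ascending limb (-0.47), where 0 were higher and 1 lower, and macrophages had 0. With library size only, 3 fell in the connecting tubule, 8 rose in the distal convoluted tubule and 0 fell in macrophages. With no filter on low counts, 8 rose in the distal convoluted tubule, 5 fell in endothelial and 6 in intercalated cells, and in macrophages 1 rose and 0 fell. With at most 20% mitochondrial UMIs, 3 rose in the distal convoluted tubule, 0 fell in intercalated cells, where the changes shrank, and in macrophages, where that of Atf3 was -0.58, near the -0.59 in all macrophages, 0 changes were lower in macrophages than in proximal tubule, and 1 (Klf4) was lower in the distal convoluted than in the connecting tubule. Without doublet removal, 2 rose in the distal convoluted tubule, 2 fell in endothelial and 1 in intercalated cells, and 0 rose in principal cells and thick ascending limb. DESeq2 called 5 lower in endothelial cells and 1 in proximal tubule. With clusters of at least 10 cells in each mouse, 0 fell in macrophages.

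Same-numbered mice had correlations of -0.439 to -0.019, so the numbers did not pair them. With the mouse number as a replicate block, 1 rose and 3 fell in the connecting tubule, 2 rose in the distal convoluted tubule, and 0 were called in endothelial, intercalated and principal cells, macrophages and thick ascending limb.

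With 1 mouse left out, the count of members was 1 to 2 higher and 3 to 5 lower in the connecting tubule, 2 to 7 higher in the distal convoluted tubule, 1 to 2 lower in endothelial and 0 to 3 lower in intercalated cells, 0 to 1 higher and 0 to 1 lower in macrophages, and 0 to 1 higher in principal cells and in thick ascending limb. Of the differences, 0 to 1 were lower in macrophages, 0 to 4 lower in endothelial cells and 2 to 4 higher in thick ascending limb than in proximal tubule, and 0 to 1 lower in the distal convoluted than in the connecting tubule.

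Cells per mouse limit the smaller types: the connecting tubule had 125 to 258 and the distal convoluted tubule 138 to 322. With at most 20% mitochondrial UMIs these were 64 to 94 and 23 to 92. Klf4 had the lowest level of the members in both types, and so the fewest UMIs, but it was not the least precise in both. Without that limit, the SE of its log2 change was 0.23 in the distal convoluted tubule, the highest of the members. In the connecting tubule it was 0.18, between 0.15 for Jun and 0.23 for Junb.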
